A study of Mus musculus with 8 samples.

Results

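The 10 genes Apoe, Abca1, Abcg1, Nr1h3, Lpl, Npc2, Lipa, Plin2, Soat1 and Ch25h act in the export, uptake, lysosomal release and storage of cholesterol and other lipids. They were picked by symbol out of 57010 Ensembl gene identifiers in a table of read counts, each symbol matched 1 identifier, and all 10 passed the filter on low counts. The table covers poly(A) RNA of whole retina from wild-type mice of postnatal day 15 (WT P15) and from rd10 mice of postnatal day 15, 18 or 21 (rd10 P15, P18 and P21), with 2 libraries per group, 8 in all, and 1 retina per library. The labels of these groups give no treatment. The rd10 strain is homozygous for a germline point mutation of Pde6b, the gene of the beta subunit of rod phosphodiesterase, so that the mutation is in every cell, and its rods degenerate in the weeks after eye opening. There was no wild-type library at P18 or P21, and age and genotype therefore cannot be told apart in the comparisons of those ages with WT P15. Comparisons with WT P15 share the same 2 control libraries, and those among rd10 ages share libraries too.

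Total counts lay between 28076947 and 33724562 per library, and values are given as counts scaled to library size (CPM) after TMM scaling. The rod gene Pde6b was high in every library, at 964 to 2335 CPM, so that the rods of the labelled tissue were present. Xist and 4 Y-linked genes showed that both WT P15 retinas were female, both rd10 P15 retinas were male, and P18 and P21 each had a male replicate 1 and a female replicate 2, so sex and genotype cannot be told apart at P15. The labels do not say whether the retinas of a group came from different animals, and p-values measure the spread between these libraries only. A gene was called when edgeR's quasi-likelihood test gave a Benjamini-Hochberg adjusted p under 0.05 over the 20457 genes tested and an absolute log2 fold change over 1. In bulk tissue, fewer cells of a type and less RNA per cell cannot be told apart.

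Cells that take up membranes of dying neighbours, as microglia and Müller glia do in a degenerating retina, receive more cholesterol than they can break down. Lipases and sterol carriers of the lysosome release it, the transporters ABCA1 and ABCG1 pass it to apolipoprotein E, and the surplus is esterified and kept in lipid droplets. The liver X receptors, nuclear receptors that bind oxysterols such as 25-hydroxycholesterol, switch on the genes of export.

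Only Ch25h, which encodes the enzyme that makes 25-hydroxycholesterol, was called by edgeR among the 10 genes in the 6 comparisons. It had no read in the 4 libraries of P15 retina of either genotype, was present at P18 and had a lower level at P21. Plin2, which encodes a protein of the lipid droplet coat, was 2.73-fold higher at P18 than in WT P15, and Apoe and Abca1 were 2.16-fold and 2.29-fold higher at P21. None of these 3 passed edgeR's adjusted threshold, while DESeq2, applied to the same counts with the same thresholds, called each of them.

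Upstream sequences are shown for the 3 genes with a motif match, Ch25h and Plin2, which were highest at P18, and Abca1, which was highest at P21. Apoe, also highest at P21, had no match to any motif searched and is not shown. The sequences are the 250 bases before the RefSeq transcript start in GRCm38.p6, all on the minus strand. They are printed 5′ to 3′ along the gene, with the matching bases in capitals. The windows are chr19:34475149-34475398 for Ch25h, chr4:86670060-86670309 for Plin2 and chr4:53159896-53160145 for Abca1.
Ch25h: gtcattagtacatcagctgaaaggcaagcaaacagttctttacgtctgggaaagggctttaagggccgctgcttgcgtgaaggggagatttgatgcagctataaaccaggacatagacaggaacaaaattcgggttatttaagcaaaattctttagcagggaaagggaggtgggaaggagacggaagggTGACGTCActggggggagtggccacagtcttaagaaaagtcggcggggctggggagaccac
Plin2: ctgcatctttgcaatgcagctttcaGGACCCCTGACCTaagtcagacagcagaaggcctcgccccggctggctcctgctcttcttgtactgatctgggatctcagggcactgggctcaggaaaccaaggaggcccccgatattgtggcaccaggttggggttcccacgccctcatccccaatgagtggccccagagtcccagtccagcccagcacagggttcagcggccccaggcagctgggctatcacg
Abca1: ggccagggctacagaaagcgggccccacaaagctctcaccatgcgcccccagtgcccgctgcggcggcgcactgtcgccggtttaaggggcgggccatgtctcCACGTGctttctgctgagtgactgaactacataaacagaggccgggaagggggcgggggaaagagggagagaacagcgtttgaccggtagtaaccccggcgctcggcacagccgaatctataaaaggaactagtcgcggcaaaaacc
In the Ch25h window the capitals mark TGACGTCA, the cyclic AMP response element, which starts 61 bases before the transcript start. This motif was added after the Ch25h window had been read, and 1.55% of the 32851 windows in the RefSeq table held it. The Plin2 window held a match with 2 mismatches to the direct repeat AGGTCANAGGTCA, the DR1 element of PPAR and other nuclear receptors, 225 bases upstream. A match with up to 2 mismatches on either strand was present in 3.24% of all windows. The Abca1 window held the E-box CACGTG 147 bases upstream, as did 6.02% of all windows. The DR4 repeat bound by liver X receptors (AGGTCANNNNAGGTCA, up to 2 mismatches, 2.57% of all windows) and the STAT motif TTCNNNGAA (7.02%) were searched on both strands too. Neither had a match at these settings in the 11 windows of the 8 genes that the table covered, which did not cover Abcg1 and Lpl. Sites that differ from these letters by more than the mismatches allowed were not counted. The lack of a match therefore does not show that a window, such as that of Abca1, is without a liver X receptor element. The matches describe letters in these windows and are not evidence of binding.

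Per length of exon, Apoe was by far the most abundant of the 10 transcripts in every group. Its level in WT P15 was 125 and 266 CPM per kb in replicates 1 and 2, followed by Abcg1 (20.1 and 17.6), Npc2 (7.44 and 9.27), Abca1 (4.88 in both), Lpl (2.89 and 3.04), Lipa (2.84 and 2.78), Soat1 (2.27 and 2.68), Plin2 (1.46 and 1.95) and Nr1h3 (0.573 and 0.631), with Ch25h at 0. Neighbours in this order did not overlap between libraries in WT P15. At P18 Plin2 stood in position 5, at 4.61 and 4.69 CPM per kb, and Ch25h in position 8, at 3.46 and 2.32. At P21 Abca1 (13.9 and 8.43) overlapped Npc2 (13.9 and 9.82), and the libraries of Lipa and Lpl, Lpl and Plin2, Plin2 and Soat1, and Nr1h3 and Ch25h overlapped as well.

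**Figure D1:**
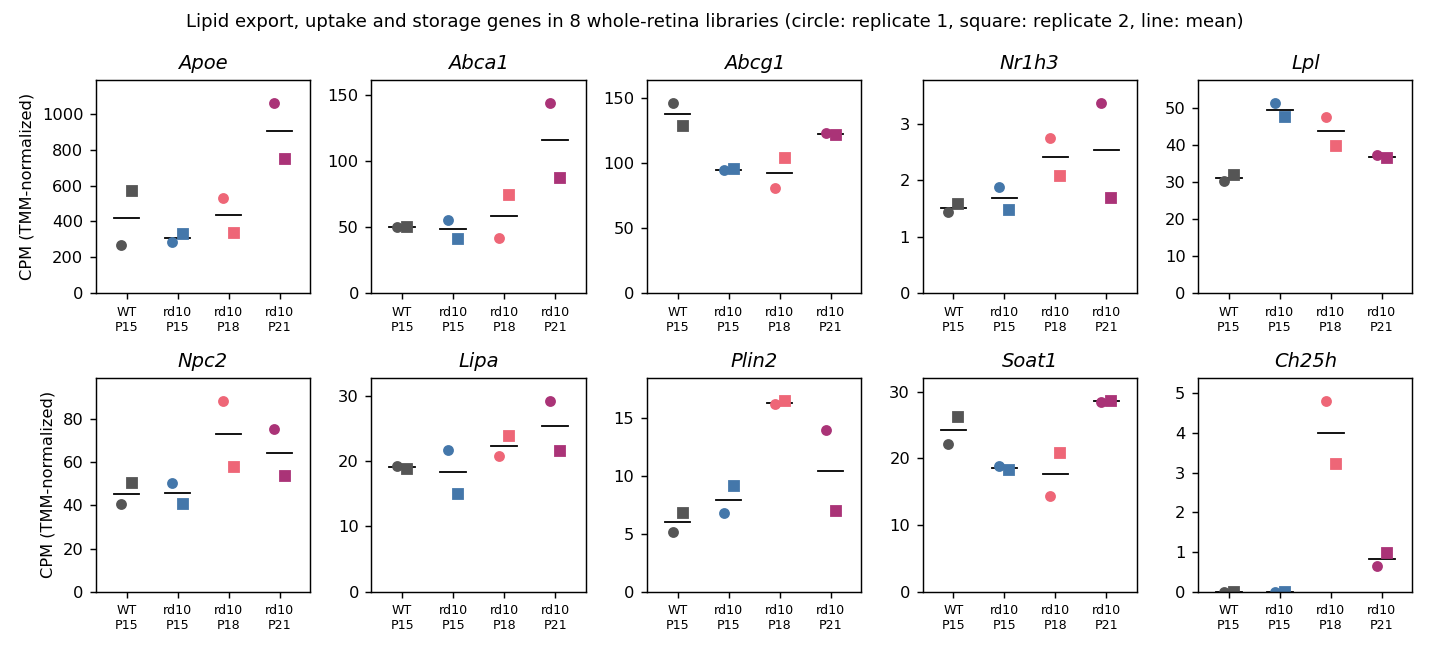
TMM-normalized CPM (vertical axis, starting at 0, with its own scale in each panel) of the 10 genes in WT P15 and rd10 P15, P18 and P21 retina; each point is a library and each line a group mean. Ch25h is at 0 in all 4 P15 libraries, Plin2 is highest in the 2 P18 libraries, and the highest Apoe and Abca1 values are in P21 replicate 1.

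Ch25h (ENSMUSG00000050370, chr19:34473778-34475164, minus strand, GRCm38) had 161 and 102 reads at P18 and 23 and 28 at P21, against none in WT P15 and none in rd10 P15. These counts are 4.80 and 3.21 CPM at P18 and 0.657 and 0.979 CPM at P21. The P18, P21 and P15 libraries did not overlap. With WT P15 set to 3 counts over both libraries, Ch25h at P18 was at least 77.8-fold higher, and Ch25h at P21 at least 15.5-fold higher. With rd10 P15 set to 3 counts in the same way, the bounds were 80.3-fold and 16.0-fold. By edgeR the gene was called at P18 against WT P15 (adjusted p = 0.0222) and against rd10 P15 (adjusted p = 0.0353). It missed the threshold at P21 in edgeR (adjusted p = 0.0777 against WT P15 and 0.0752 against rd10 P15) and was called there by DESeq2 (adjusted p = 0.002 and 0.00174). From P18 to P21 its log2 difference was -2.29 with a standard error of 0.67, which was not called (adjusted p = 0.431). The call against WT P15 was lost without WT P15 replicate 1 (adjusted p = 0.11), WT P15 replicate 2 (0.074) or rd10 P18 replicate 1 (0.0527) by edgeR. The call against rd10 P15 was lost when replicate 1 (0.136) or replicate 2 (0.137) of rd10 P15 or replicate 1 of rd10 P18 (0.0916) was left out, with only the 4 libraries compared (0.055) and with replicate number as a block (0.0582).

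An antisense transcript, Gm26902, overlaps 159 bases of Ch25h, and the library kit does not mark strand. Gm26902 had at most 31 reads in a library, in P18 replicate 1, and none in P18 replicate 2, where Ch25h had 102. Lipa lies beside Ch25h on chromosome 19, with 17.2 kb between the ends of the genes, and was not called in any comparison.

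The tested genes with the profile closest to Ch25h over the 8 libraries were Bcl3, Serpina3n and S100a6, measured by the root mean square difference of mean-centred log2 CPM (0.593, 0.694 and 0.827) among 15130 genes with a mean count of at least 50. Bcl3, an atypical member of the IκB family, was at 19.9 and 18.7 CPM at P18, 4.60 and 4.61 at P21, and at most 0.48 in the P15 libraries. Serpina3n, a secreted serine protease inhibitor of reactive glia, was at 212 and 241 CPM at P18, 131 and 57.6 at P21, and at most 5.21 before. S100a6, a calcium-binding protein, was at 52.9 and 34.2 CPM at P18, 18.5 and 10.3 at P21, and at most 2.47 before. They were chosen for this likeness, so their highest levels at P18 are a description only. Bcl3 and Serpina3n are on the list of reactive Müller glia markers used here.

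**Figure D2:**
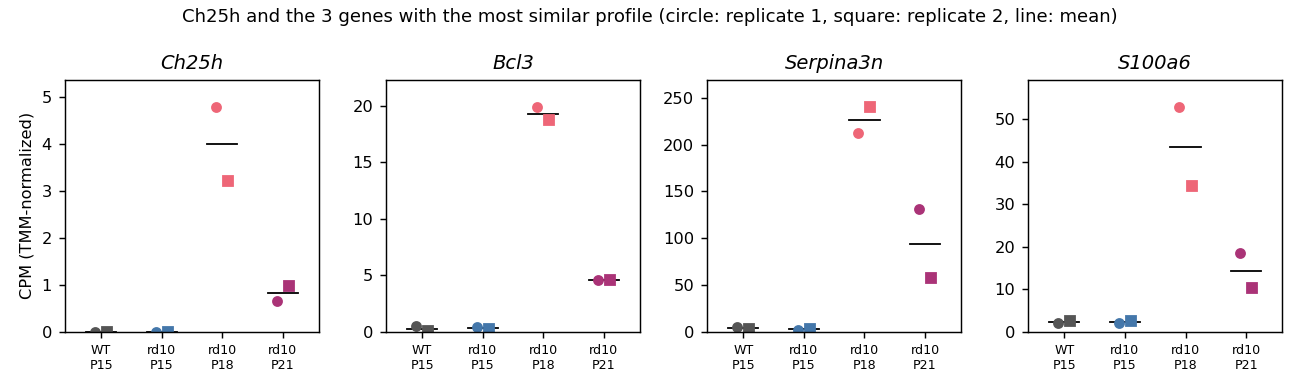
TMM-normalized CPM (vertical axis, starting at 0, with its own scale in each panel) of Ch25h and of the 3 genes with the most similar profile in WT P15 and rd10 P15, P18 and P21 retina; points are libraries and lines group means. In each panel the P18 libraries are highest, the P21 libraries lie between them and the P15 libraries, and the P15 libraries lie near 0.

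Storage was represented by Plin2 and Soat1. Plin2 (ENSMUSG00000028494, chr4:86648386-86670060) was at 5.14 and 6.83 CPM in WT P15, at 6.78 and 9.09 in rd10 P15, at 16.20 and 16.48 in rd10 P18, and at 13.93 and 6.99 in rd10 P21. Both P18 libraries stood above the other 6, whereas the P21 replicates differed from each other, replicate 2 being inside the range of rd10 P15. The log2 fold change against WT P15 was 1.45 (SE 0.35) at P18, with an adjusted p of 0.0873 by edgeR and 0.00692 by DESeq2, and 0.81 (SE 0.35) at P21, with an adjusted p of 0.417 by edgeR. Without P21 replicate 1 the value at P21 was 0.22, and without replicate 2 it was 1.22. Against rd10 P15 the P18 value was 1.04 (SE 0.35; edgeR adjusted p = 0.269). Without P21 replicate 2 in the fit, edgeR called Plin2 at P18 against WT P15 (adjusted p = 0.0464).

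Soat1 (ENSMUSG00000026600, chr1:156424525-156474331) encodes the enzyme that esterifies cholesterol for storage. Its levels were 22.25 and 26.22 CPM in WT P15, at 18.81 and 18.26 in rd10 P15, at 14.41 and 20.89 in rd10 P18 and at 28.49 and 28.63 in rd10 P21. The rd10 libraries at P15 and P18 were all below WT P15 and the P21 libraries were above it. None of these differences was called. Log2 fold changes against WT P15 were -0.39, -0.46 and 0.24 (SE 0.21 each) at P15, P18 and P21, with adjusted p of 0.517, 0.313 and 0.747 by edgeR, and 0.69 (SE 0.21; adjusted p = 0.431) from P18 to P21.

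Of the export genes, Apoe (ENSMUSG00000002985, chr7:19696109-19699188), the main apolipoprotein made by glia, was at 268 and 569 CPM in WT P15, at 286 and 330 in rd10 P15, at 533 and 338 in rd10 P18 and at 1061 and 746 in rd10 P21. Both P21 libraries were above the other 6. At P18 the libraries overlapped those of WT P15, whose replicates spanned more than a factor of 2. From rd10 P15 to P21 the log2 fold change was 1.55 (SE 0.39), not called by edgeR (adjusted p = 0.181) and called by DESeq2 (adjusted p = 0.000587), and in a fit of these 4 libraries alone edgeR called it too (adjusted p = 0.0428). From P18 to P21 it was 1.05 (SE 0.38; edgeR adjusted p = 0.440). Against WT P15 the value at P21 was 1.11 (SE 0.39; adjusted p = 0.326 by edgeR and 0.0352 by DESeq2), with 0.68 when WT P15 replicate 1 was left out and 1.75 when WT P15 replicate 2 was. At P18 it was 0.06 (SE 0.38; edgeR adjusted p = 0.962). The sign of that value turned when WT P15 replicate 1 was left out (-0.38) or rd10 P18 replicate 1 was (-0.31) and with a term for sex (-0.27).

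Abca1 (ENSMUSG00000015243, chr4:53030787-53159895), the transporter that loads cholesterol onto apolipoproteins, was at 50.52 and 50.54 CPM in WT P15, at 55.66 and 41.46 in rd10 P15, at 42.24 and 74.48 in rd10 P18 and at 144.26 and 87.33 in rd10 P21. As for Apoe, both P21 libraries were the highest and replicate 1 was above replicate 2. The log2 fold change at P21 was 1.20 (SE 0.32) against WT P15, with an adjusted p of 0.187 by edgeR and 0.0109 by DESeq2, and 1.25 (SE 0.32) against rd10 P15, with 0.179 and 0.00666. Without P21 replicate 1 these values were 0.79 and 0.85. From P18 to P21 it was 0.99 (SE 0.32; edgeR adjusted p = 0.437), and without rd10 P18 replicate 2 it was 1.45 and was called (adjusted p = 0.04999). At P18 against WT P15 it was 0.21 (SE 0.32; edgeR adjusted p = 0.793), and without rd10 P18 replicate 2 it was -0.26.

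Abcg1 (ENSMUSG00000024030, chr17:31057675-31117988, plus strand), which exports cholesterol to larger lipoprotein particles, had lower levels in rd10 than in WT P15 libraries. It was at 146.76 and 128.59 CPM in WT P15, at 94.64 and 95.53 in rd10 P15, at 80.99 and 103.94 in rd10 P18 and at 123.02 and 121.87 in rd10 P21. All 6 rd10 libraries were below both WT P15 libraries, and the P21 libraries were the highest of the rd10 ones. The log2 fold change was -0.53 (SE 0.15) at P15, -0.57 (SE 0.15) at P18 and -0.17 (SE 0.15) at P21, with edgeR adjusted p of 0.1985, 0.106 and 0.751. DESeq2 gave an adjusted p of 0.0271 at P18, where the change of 0.672-fold is under the fold threshold.

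Nr1h3 (ENSMUSG00000002108, chr2:91184061-91202834) encodes liver X receptor alpha and had 39 to 118 reads per library, the lowest level per length of exon of the 10 after Ch25h in WT P15, rd10 P15 and rd10 P21 and the lowest at P18. It was at 1.44 and 1.59 CPM in WT P15, at 1.88 and 1.48 in rd10 P15, at 2.74 and 2.08 in rd10 P18 and at 3.37 and 1.68 in rd10 P21. Libraries of P18 and P21 were above WT P15, but the log2 fold changes of 0.67 and 0.74 had standard errors of 0.49 and edgeR adjusted p of 0.531 and 0.633. An exon of Gm13783 on the same strand overlaps 34 bases of Nr1h3.

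Of the uptake and release genes, Lpl (ENSMUSG00000015568, chr8:68880491-68907448, plus strand), the lipase that frees fatty acids from lipoproteins, was the only member of the 10 with both rd10 P15 libraries above both WT P15 libraries. It was at 30.23 and 31.89 CPM in WT P15, at 51.39 and 47.63 in rd10 P15, at 47.61 and 39.70 in rd10 P18 and at 37.23 and 36.46 in rd10 P21. Every rd10 library exceeded WT P15, and the level was highest at P15. The log2 fold change was 0.67 (SE 0.15) at P15, 0.49 (SE 0.15) at P18 and 0.25 (SE 0.15) at P21, with edgeR adjusted p of 0.113, 0.146 and 0.589. DESeq2 gave an adjusted p of 0.013 at P15, where the change is under the fold threshold.

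Npc2 (ENSMUSG00000021242, chr12:84754562-84773152), a soluble cholesterol carrier of the lysosome, was at 40.43 and 50.41 CPM in WT P15, at 50.57 and 40.82 in rd10 P15, at 88.41 and 57.72 in rd10 P18 and at 75.37 and 53.42 in rd10 P21. Libraries of P18 and P21 lay above all P15 libraries, with log2 fold changes of 0.69 and 0.50 (SE 0.25 each) against WT P15 and edgeR adjusted p of 0.218 and 0.492. Lipa (ENSMUSG00000024781, chr19:34492318-34527474), the lysosomal acid lipase, was at 19.25 and 18.84 CPM in WT P15, at 21.67 and 15.05 in rd10 P15, at 20.82 and 23.85 in rd10 P18 and at 29.23 and 21.61 in rd10 P21. It had the smallest range of the 10 across group means, with log2 fold changes of 0.23 and 0.42 (SE 0.23 each) at P18 and P21 and edgeR adjusted p of 0.665 and 0.547.

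**Figure D3:**
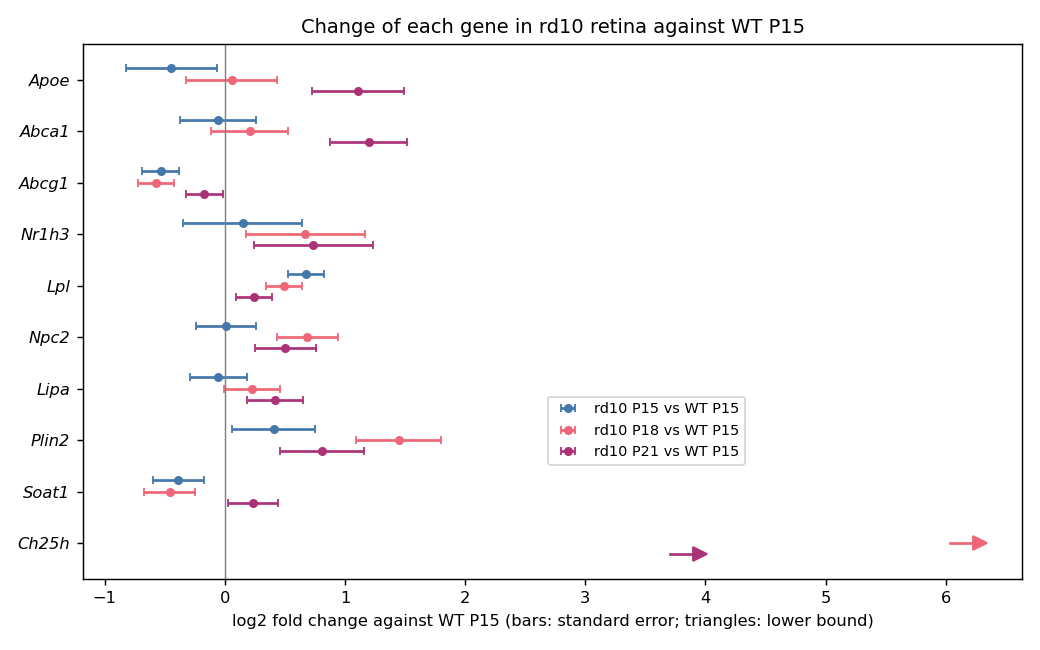
Log2 fold change of the 10 genes in rd10 P15, P18 and P21 retina against WT P15 (horizontal axis); points are edgeR estimates, bars their standard errors, and triangles for Ch25h the lower bound against a floor of 3 counts. Plin2 is farthest right of the 9 fitted genes at P18 (1.45), Abca1 (1.20) and Apoe (1.11) at P21, and Abcg1 lies left of 0 at each age.

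At P18 against WT P15, 1 of the 10 genes (Ch25h) was called by edgeR, where 1.48% of all tested genes were, and 2 (Ch25h and Plin2) by DESeq2, where 4.86% were, with 5 of the 10 at an unadjusted p under 0.05 by edgeR (17.4% of all genes). At P21 edgeR called 0 of 10 (0.386% of all genes) and DESeq2 called 3 (Apoe, Abca1 and Ch25h; 2.91%), with 4 of the 10 at an unadjusted p under 0.05 (11.8%). At P15 edgeR called 0 of 10 (0.23%) and DESeq2 called 0 (2.27%), with 2 at an unadjusted p under 0.05 (12.3%). Among rd10 ages, edgeR called 1 between P18 and P15 (Ch25h; 0.591%) and DESeq2 the same gene (3.04%), with 3 at an unadjusted p under 0.05 (12.9%). Between P21 and P15 edgeR called 0 (0.401%) and DESeq2 called 3 (Apoe, Abca1 and Ch25h; 2.77%), with 6 at an unadjusted p under 0.05 (12.8%). Between P21 and P18 both tools called 0 (0.0196% and 0.66%), with 5 at an unadjusted p under 0.05 by edgeR (10.8%).

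Both libraries were above both WT P15 libraries for 6 of 10 genes at P18, where this held for 24.1% of all tested genes, and for 9 of 10 at P21, where it held for 24.9%. Abcg1 and Soat1 were below at P18 (22.9% of all genes were below) and Abcg1 alone at P21 (24.2%). At P15 Lpl alone was above (24.8%), and Abcg1 and Soat1 were below (24.9%). The median log2 fold change of the 10 was -0.03 at P15, 0.36 at P18 and 0.62 at P21, beside -0.01, 0.01 and 0.00 over all genes, and without Ch25h it was 0.23 at P18 and 0.50 at P21. With scaling by library size only, 6 genes were above and 1 below at P18, 9 above and 0 below at P21, and 2 above and 2 below at P15. Putting Ch25h at its lower bound left the median of the 10 as it was. With 1 library left out, the median at P15 lay between -0.22 (without rd10 P15 replicate 1) and 0.15 (without rd10 P15 replicate 2), and that at P18 between 0.35 and 0.62 (without WT P15 replicate 2). The median at P21 was 0.23 without P21 replicate 1, was 0.95 without P21 replicate 2, and was 0.36 with a term for sex. In P21, replicate 1 was above replicate 2 for 8 of the 10 genes (all but Soat1 and Ch25h), against 51% of all tested genes.

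Markers of other cell types were read beside these values because whole retina holds all of them. Summed over 10 microglia markers, the level was 41.8 and 50.9 CPM in WT P15, at 76.2 and 75.8 in rd10 P15, at 199.8 and 200.4 in rd10 P18 and at 289 and 140 in rd10 P21, with replicate 1 of P21 above replicate 2 as for Apoe, Abca1 and Plin2. The microglia marker Cx3cr1 went the other way at P21, at 7.54 CPM in replicate 1 and 17.8 in replicate 2. P2ry12 was lower at P18 (4.41 and 3.75 CPM) than in rd10 P15 (7.86 and 8.07), where 8 of the 10 microglia markers had a positive log2 fold change between these groups. The 8 monocyte and macrophage markers summed to 4.43 and 8.45 CPM in WT P15, at 10.4 and 8.78 in rd10 P15, at 58.3 and 57.9 in rd10 P18 and at 57.1 and 20.9 in rd10 P21. Of these, Cd163 was at 0 in 7 of the 8 libraries, and Ly6c2 and Plac8 were at 0 in P21 replicate 2. The 8 reactive Müller glia markers, which include Gfap and Lcn2, summed to 79.4 and 97.3 CPM in WT P15, at 55.8 and 58.3 in rd10 P15, at 1139 and 996 in rd10 P18 and at 515 and 390 in rd10 P21, highest at P18 and next at P21 as for Ch25h, and they include Bcl3 and Serpina3n. Of the 8 reactive markers, 7 were lower in both P21 libraries than in both P18 libraries. Fgf2 was not, at 146 and 12.9 CPM at P18 and 135 and 140 at P21, and its P18 replicate 2 was below both WT P15 libraries (29.5 and 30.8). The 8 markers of Müller glia in general summed to 4267 and 4731, 4623 and 3944, 3863 and 4006, and 5459 and 5296 CPM in the 4 groups. This sum was highest at P21 like Apoe and Abca1, and Glul was its largest part, at 2915 and 2884 CPM at P21. At P21, 8 of the 8 had a positive log2 fold change against WT P15, 7 against P18 and 6 against rd10 P15. Vim was at 355 and 337 CPM at P18 and lower at P21, at 130 and 209. The 6 endothelium markers summed to 475 and 377 CPM at P21 against 228 to 356 in the other libraries, with replicate 1 above replicate 2. Kdr made up most of that sum, at 418 and 321 CPM at P21. Against rd10 P15, only 1 of the 6 had a positive log2 fold change at P21, and their median was -0.58. The 6 pericyte and fibroblast markers summed to 113 CPM in both WT P15 libraries and to 206 and 227 in rd10 P15. They summed to 149 and 143 at P18 and to 124 and 128 at P21. Rgs5 made up most of these sums, at 173 and 190 CPM in rd10 P15, and had the order of groups seen for Lpl. No other tested marker of this list had that order in group means. In the endothelium list Cldn5 had it too, at 33.9 and 34.4 CPM in rd10 P15, 32.4 and 22.7 at P18, 19.7 and 19.8 at P21 and 8.87 and 8.19 in WT P15, and so did Emcn. Pdgfrb was highest at P21 (26.6 and 19.9 CPM), and Col3a1 (8.50 and 6.71) and Col1a1 (1.22 and 1.20) at P18. Kcnj8 was highest in rd10 P15, but its mean at P21 (libraries at 2.80 and 1.82) was under that of WT P15 (2.22 and 3.11). The 8 pigment epithelium markers summed to 42.6 and 157 CPM in WT P15, at 222 and 260 in rd10 P15 and 23.2 to 39.5 at P18 and P21. In WT P15 the pigment epithelium sum and Apoe were both higher in replicate 2. Across groups they differed, since the sum was highest in rd10 P15, where Apoe had its lowest group mean. At P21, where Apoe was highest, the sum was below that of every P15 library. The 8 rod markers summed to 38597 to 47500 CPM in WT P15 and 18760 to 30707 in the 6 rd10 libraries. The part of these cell types in the levels of the 10 genes was not tested.

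**Figure D4:**
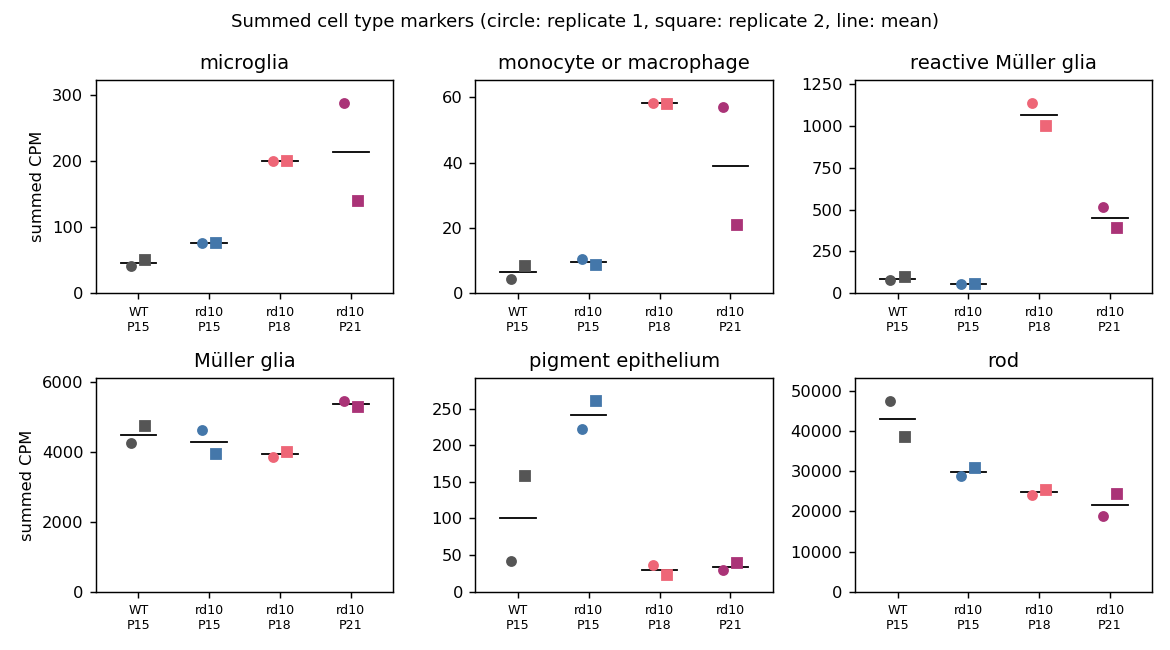
Summed TMM-normalized CPM (vertical axis, starting at 0, with its own scale in each panel) of markers of 6 cell types in WT P15 and rd10 P15, P18 and P21 retina; points are libraries and lines group means. The microglia sum is near 200 CPM in both P18 libraries and 289 and 140 in the P21 libraries, and the reactive Müller glia sum is highest at P18 (1139 and 996).

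The other genes of these pathways were read from 7 lists holding 93 genes, of which 88 were tested; Olr1, Plin5, Soat2, Cidec and Pparg had too few counts. Against WT P15, edgeR called 0 of them at P15, 2 at P18 (Clu and Msr1, both higher) and 1 at P21 (Clu), beside 0.23%, 1.48% and 0.386% of all tested genes. DESeq2 called 2, 6 and 2, beside 2.27%, 4.86% and 2.91%. At an unadjusted p under 0.05 by edgeR there were 18, 26 and 27, beside 12.3%, 17.4% and 11.8%. The medians of the efflux and liver X receptor list, the sterol synthesis genes and the PPAR genes were negative at both P18 and P21. The exception was the efflux and liver X receptor list at P21, which was at 0.03 when scaled by library size only. The medians of the other 4 lists were positive at both ages, but with 1 library left out 4 of these medians spanned 0: the uptake genes at P18 (-0.29 to 0.26), the oxysterol genes at P18 (-0.03 to 0.39), the lipid droplet genes at P21 (-0.05 to 0.10) and the lysosomal genes at P21 (-0.01 to 0.29).

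Among 15 genes of sterol efflux and liver X receptor targets, with medians of -0.33 at P18 and -0.08 at P21, Clu was the one called. Clu encodes clusterin, a lipid-binding apolipoprotein, and was at 426 and 454 CPM in WT P15, at 407 and 367 in rd10 P15, at 1229 and 947 in rd10 P18 and at 1437 and 1064 in rd10 P21. It rose by a log2 fold change of 1.31 (SE 0.19; edgeR adjusted p = 0.0222) at P18 and 1.51 (SE 0.19; edgeR adjusted p = 0.0332) at P21. The call at P18 was lost without either WT P15 library (0.177 and 0.105) and with only the 4 libraries compared (0.0612), and that at P21 without either WT P15 library (0.203 and 0.111), either rd10 P15 library (0.0684 and 0.0707) or rd10 P21 replicate 1 (0.122). Against rd10 P15 edgeR called Clu at both ages as well. Scd1, a fatty acid desaturase, was lower at P18 (10.2 and 10.7 CPM) than in WT P15 (19.7 and 21.8). It passed the adjusted threshold there but not the fold threshold. Apod, another apolipoprotein, was at 0.887 and 1.17 CPM in WT P15 and already at 3.12 and 3.42 in rd10 P15. It was at 8.77 and 4.82 CPM at P18 and 6.62 and 1.43 at P21, and edgeR did not call it at these 2 ages against WT P15 (adjusted p = 0.0962 and 0.298). DESeq2 called it at P18 (adjusted p = 0.00381), as did edgeR without rd10 P18 replicate 2 (0.0350), rd10 P21 replicate 1 (0.0358) or rd10 P21 replicate 2 (0.0289).

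Among the 13 tested uptake genes, with medians of 0.02 and 0.16, Msr1, the macrophage scavenger receptor, was at 0.148 and 0.162 CPM in WT P15, at 0.573 and 0.458 in rd10 P15, at 5.43 and 2.84 in rd10 P18 and at 0.828 and 0.524 in rd10 P21. It rose at P18 (log2 fold change 4.70, SE 0.69, edgeR adjusted p = 0.0222), and that call was lost without WT P15 replicate 1 (0.165), WT P15 replicate 2 (0.108) or rd10 P18 replicate 1 (0.0788). Like Ch25h, it was lower at P21 than at P18, by a log2 difference of -2.60 that edgeR did not call (adjusted p = 0.406) and DESeq2 did (adjusted p = 0.0368). Angptl4, an inhibitor of lipoprotein lipase, was at 1.18 and 1.36 CPM in WT P15, at 3.05 and 2.71 in rd10 P15, at 4.33 and 3.50 in rd10 P18 and at 1.80 and 1.33 in rd10 P21. At P18 against WT P15 its adjusted p was 0.0957 by edgeR and 0.0219 by DESeq2, which called it.

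Of 14 tested lipid droplet genes, with medians of 0.16 and 0.09, none was called by edgeR, and DESeq2 called Plin4, which encodes another droplet coat protein. Plin4 was at 0.739 and 0.55 CPM in WT P15, at 0.35 and 0 in rd10 P15, at 3.61 and 4.10 in rd10 P18 and at 5.14 and 6.71 in rd10 P21. Its adjusted p was 0.167 and 0.168 by edgeR and 0.00962 and 0.000878 by DESeq2 at P18 and P21 against WT P15, and 0.0351 by edgeR at P21 with only the 4 libraries compared. Unlike Plin2, it had its highest values in both P21 libraries. The 12 lysosomal lipid genes had medians of 0.22 and 0.14 and no call, Lamp2 having the largest difference at P18 (log2 fold change 0.63, edgeR adjusted p = 0.0877) and Hexa at P21 (0.56, adjusted p = 0.22).

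The 24 genes of sterol synthesis and its control lay mostly lower in rd10 retina at both later ages. Their median log2 fold change against WT P15 was -0.32 at P18 and -0.43 at P21, and both libraries were below both WT P15 libraries for 14 and 18 of the 24, against 22.9% and 24.2% of all tested genes. None was called by edgeR, and 7 and 13 had an unadjusted p under 0.05, beside 17.4% and 11.8% of all tested genes. Insig1, which retains the sterol sensor in the endoplasmic reticulum, was the one gene past the adjusted threshold, at 106 and 122 CPM in WT P15, at 71.7 and 66.6 in rd10 P15, at 65.0 and 61.1 in rd10 P18 and at 63.8 and 58.3 in rd10 P21. The log2 fold change of Insig1 was -0.85 (SE 0.13; edgeR adjusted p = 0.0288) at P18 and -0.90 (SE 0.13; edgeR adjusted p = 0.0445) at P21, under the fold threshold. Scaling by library size alone gave medians of -0.19 and -0.31 and left 10 and 15 of the 24 below, and with 1 library left out the medians lay between -0.35 and -0.28 at P18 and between -0.46 and -0.34 at P21.

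The 6 other oxysterol genes had medians of 0.16 and 0.38 and none was called against WT P15. Cyp27a1, the mitochondrial sterol 27-hydroxylase, was lowest in rd10 P15, at 4.36 and 6.02 CPM in WT P15, at 0.477 and 1.20 in rd10 P15, at 5.64 and 6.96 in rd10 P18 and at 7.05 and 7.94 in rd10 P21. From rd10 P15 it rose by a log2 fold change of 2.91 (SE 0.46; edgeR adjusted p = 0.0442) at P18 and 3.16 (SE 0.46; edgeR adjusted p = 0.0363) at P21. Both calls were lost without any 1 of the 4 libraries of WT P15 and rd10 P15 (adjusted p 0.0593 to 0.180 and 0.0509 to 0.149), that at P18 also with only the 4 libraries compared (0.138), and that at P21 also without replicate 1 (0.114) or 2 (0.0712) of P21. The difference between rd10 P15 and WT P15 was -2.63 (SE 0.46; adjusted p = 0.0609 by edgeR and 3.4e-05 by DESeq2). Hsd3b7, whose exons overlap those of Gm49388 on the same strand and of 9430064I24Rik on the opposite strand and which is uncertain for that reason, had the largest difference of this list at P18 (log2 fold change 0.89, edgeR adjusted p = 0.262). Of the 4 tested PPAR genes, with medians of -0.43 and -0.30, none was called. Ppara was at 2.60 and 8.66 CPM at P18 and 4.97 and 10.1 at P21, under both WT P15 libraries at each age, and Pparg had 2 reads in P18 replicate 1, 2 in P21 replicate 1 and none elsewhere.

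**Figure D5:**
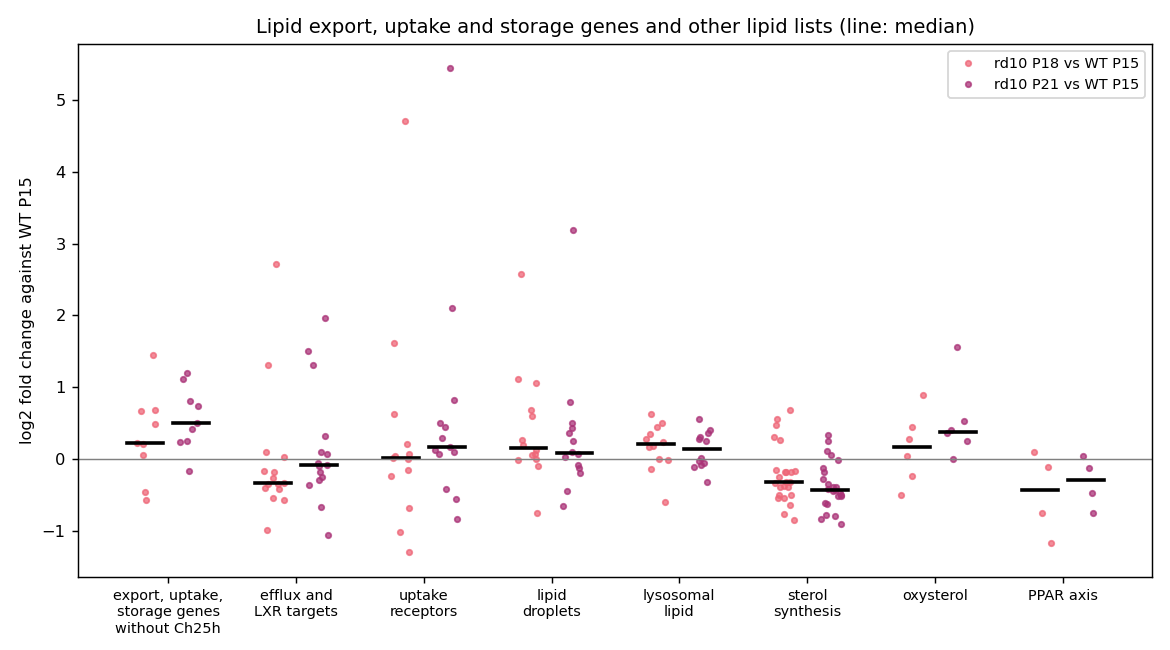
Log2 fold change of single genes (points) at P18 and P21 against WT P15 (vertical axis) for 9 of the 10 genes, without Ch25h, and for the tested genes of 7 other lipid lists, with a line at each median. The sterol synthesis points lie mostly under 0, with medians of -0.32 and -0.43, while the medians of the 9 genes are 0.23 and 0.50; the highest uptake point at P21 is Gpihbp1, which has no read in WT P15 and 10 in 1 of the P21 libraries, so that its fitted value is no measure of size.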

How the data were processed

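The authors deposited a table of raw counts, unnormalized whole numbers, for 57010 Ensembl gene identifiers in 8 whole-retina libraries. The submitters' processing notes name HISAT2; the sources used here do not name the counting tool, genome build or annotation release. Symbols, positions and exon lengths came from GENCODE M21 (GRCm38), which names 52029 identifiers, and upstream sequences from RefSeq (GRCm38.p6).

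Counts were filtered with filterByExpr over the 4 groups (minimum count 10, minimum total count 15), scaled by TMM (factors 0.937 to 1.063) and fitted for all 8 libraries with edgeR 4.0.16 (limma 3.58.1, R 4.3.3), quasi-likelihood, robust, without a block. This left 4 residual degrees of freedom. P-values were adjusted over 20457 genes by the Benjamini-Hochberg method. The standard error is the absolute log2 fold change divided by the square root of F. Log2 CPM used a prior count of 2. A group without counts was set to 3 counts in all for a lower bound of the fold, which covers counting error only. Exact permutation of 2 against 2 libraries cannot give p below 0.333. Fits were tested on simulated data.

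The 10 genes, the 7 pathway lists and the marker lists were chosen with earlier results of these data known. Besides the 10 genes, the text names list genes called in any of 6 comparisons, the list gene that differed most from WT P15 at either later age among those with a mean count of at least 50, and the 3 genes most like a called gene. A list gene that this rule names is not reported here. Scd1 and Pparg were chosen after their values were seen. Alternatives were DESeq2 1.42.0, RLE factors, library size only, no filter, only the 4 libraries compared, a replicate block, a term for sex read from the counts, no fold threshold, and each library left out in turn. Figures were drawn with matplotlib 3.10.9.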

Additional observations from a re-analysis of the deposited data

How the results depend on the processing

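With 2 libraries per group, calls rested on single libraries. At P18 against WT P15, edgeR called 1 of the 10 genes, DESeq2 called 2, and with 1 library left out 0 to 2 were called. At P21 against WT P15, edgeR called 0, DESeq2 3 (each at the same thresholds) and edgeR without the filter on low counts 1, Ch25h, at an adjusted p of 0.0413. Between P18 and rd10 P15 the count was 1 in edgeR, 0 with only the 4 libraries compared, 0 with the replicate block, and 0 to 1 with 1 library left out. Between P21 and rd10 P15 it was 0 in edgeR, 3 in DESeq2, 1 without the filter (Ch25h, adjusted p 0.0437) and 1 with only the 4 libraries compared (Apoe). Between P21 and P18 it was 0, and 0 to 1 with 1 library left out, Abca1 being called without rd10 P18 replicate 2. RLE factors, scaling by library size only, a term for sex and no fold threshold left the number of the 10 genes called within 1.5 times in all 6 comparisons. Of the 88 other pathway genes tested, 0, 2 and 1 were called at P15, P18 and P21 against WT P15 by edgeR and 2, 6 and 2 by DESeq2. With 1 library left out 0 to 1, 0 to 9 (9 without rd10 P18 replicate 2) and 0 to 1 were called, with only the 4 libraries compared 1 at P18 and 2 at P21, without the filter 1 at P15, and without a fold threshold 4 at P18 and 2 at P21. A group left with 1 library was assumed to vary like the others.

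The direction turned for Apoe at P18 against WT P15 with a term for sex (-0.27) and, over fits with 1 library left out, from -0.38 to 0.70, and for Abca1 at P18 against WT P15 from -0.26 to 0.56. Over 55 gene results and 15 alternatives each, 764 of 825 kept direction and call, 30 lost the call, 27 gained one and these 4 turned. Most of the 55 results were not called in the main fit and so could not lose a call, and 764 of 825 is no measure of how stable the calls are. The 30 losses all fell on the results called there. These were Ch25h at P18 against WT P15 and rd10 P15, Clu at P18 and P21, Msr1 at P18, and Cyp27a1 at P18 and P21 against rd10 P15. Apart from the replicate numbers, no pairing of retinas is given. The correlations of replicate differences between groups were -0.0639 to 0.126, the highest being between P18 and P21, which each had a male replicate 1 and a female replicate 2. Such correlations cannot exclude a pairing. Under library size only, the median of all genes shifted to 0.13 at P18 and 0.11 at P21, and the medians of the 10 genes were 0.48 and 0.73. Ch25h (0 to 161 reads per library) and Nr1h3 (39 to 118) had the fewest reads of the 10 genes. The causes of these shifts were not tested.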
